A study of Solanum lycopersicum with 12 samples.

Results

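The tricarboxylic acid cycle oxidises acetyl groups in the mitochondrion, and its intermediates citrate and malate are the acids that ripe tomato fruit stores in the vacuole. Side reactions feed the cycle or draw on it: PEP carboxylase makes oxaloacetate, malic enzyme turns malate into pyruvate, cytosolic isocitrate dehydrogenase provides 2-oxoglutarate for amino acids, and malate synthase belongs to the glyoxylate cycle that turns stored lipid into sugar. The members described here are the genes annotated to the tricarboxylic acid cycle, to malate metabolism or to isocitrate metabolism, together with those described as malate dehydrogenase, citrate synthase, aconitate hydratase, isocitrate dehydrogenase or succinate dehydrogenase. Of the 24215 genes in the table, 53 matched, and 50 had an FPKM (fragments scaled by gene length and by sequencing depth) of at least 1 in at least 3 of the 12 libraries.

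Fruits of red tomato No. 20 and yellow tomato No. 19, which the series describes as close relatives, were sampled at maturity (55 days from anthesis) and at color break (40 days from anthesis), the onset of ripening color. The groups are red at maturity, yellow at maturity, red at color break and yellow at color break, with 3 libraries each. No treatment or engineered allele is named in the labels. Separate plants are not named for the replicates, so the p-values here measure the spread between libraries, which may be technical. Nor do the labels tell whether seeds were taken out. Total counts ran from 50963462 to 60854667 per library, and the members took 0.925% to 1.18% of them. All 5 ripening markers (polygalacturonase PG2A, E8, RIN, phytoene synthase PSY1 and expansin EXP1) had counts in every library. They did not go one way between the tomatoes at maturity. PG2A averaged 591 ± 34.6 FPKM in red and 5607 ± 57.0 FPKM in yellow and E8 3478 ± 173 FPKM in red and 4901 ± 12.4 FPKM in yellow. PSY1 was higher in red, at 2779 against 1611 FPKM in yellow. The FPKM means of RIN (274 against 239) and EXP1 (1254 against 1141) were also above the yellow ones. On scaled counts their log2 fold changes of red over yellow were 0.06 ± 0.04 and -0.002 ± 0.03 (edgeR, adjusted p = 0.206 and 0.948). Replicate 1 of red at maturity stood apart from replicates 2 and 3 of its group (chi-square per degree of freedom of 29.9 and 28.3, against 11.2 between those 2 and 5.28 to 7.85 within the other groups). Values without it are given for the called members whose fold change it moves by over 1.5 times.

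Tests ran over all 15974 genes that met the FPKM filter, with edgeR's quasi-likelihood test on the counts. Genes with a p under 0.05 after Benjamini-Hochberg adjustment passed, and those that also had a log2 fold change of at least 1 in size were called. Fold changes are given as log2 ± standard error, and levels as FPKM, with mean ± SD of 3 libraries. A difference of stage changes is the change in red minus the change in yellow. FPKM levels of red at maturity stand slightly high against the scaled counts, so a small fold change from the counts can have the other sign than the ratio of FPKM. Sums of FPKM in that group carry the same offset.

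The members were mostly well expressed. Their median level over the 12 libraries was 33.6 FPKM, against 9.43 FPKM over all genes tested, and 41 of the 50 lay above that second value. Of the 50, 11 averaged at least 100 FPKM, 30 lay between 10 and 100 FPKM and 9 lay below 10 FPKM. Their group means were spread much like those of all genes: the highest mean was under 2-fold of the lowest in 38 of 50 members (76%), against 76.1% of all genes tested. The 10 members called in any comparison had mean levels of 1.12 to 31.1 FPKM and held 2.53% of the summed mean level of the 50. The largest changes were thus in genes of low or middle level. In each of the 11 members above 100 FPKM the highest group mean was under 2-fold of the lowest. Summed over the 50 members, the level was 4105 ± 103 FPKM in red at maturity and 4458 ± 61.9 FPKM in yellow at maturity, against 3561 ± 17.1 FPKM in red at color break and 3823 ± 86.5 FPKM in yellow at color break.

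**Figure D1:**
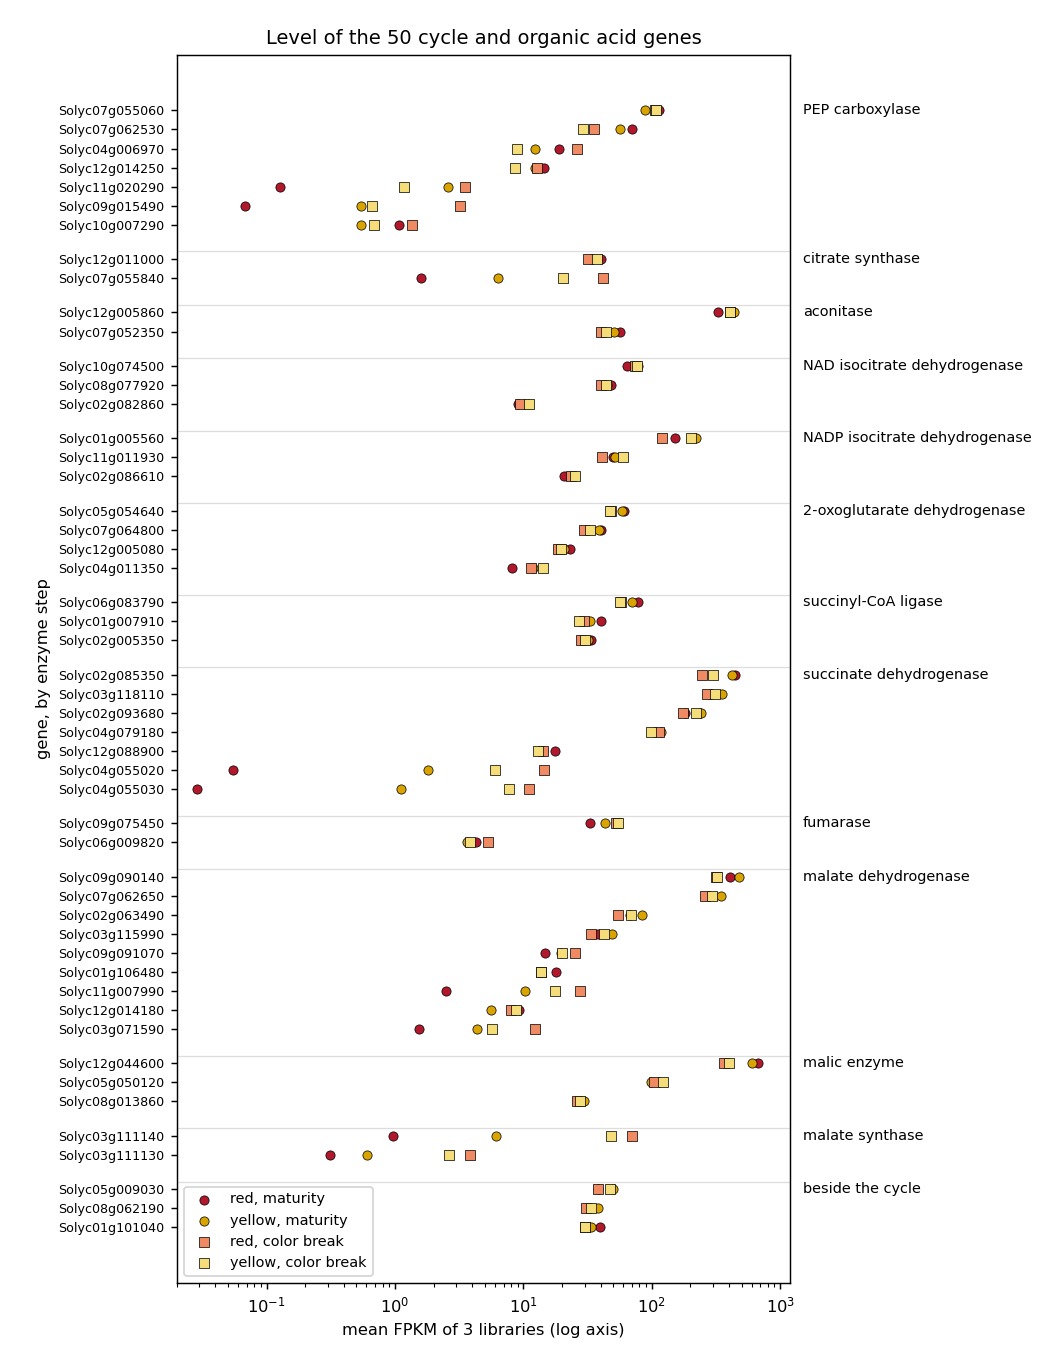
Mean FPKM of 3 libraries (log axis) for each of the 50 members, grouped by enzyme step, in red and yellow fruit at maturity (circles) and at color break (squares). Most members keep their 4 groups close together, while both malate synthases, 1 citrate synthase, 2 succinate dehydrogenase iron-sulfur genes, 2 plastid malate dehydrogenases and 2 PEP carboxylases reach their lowest level in red at maturity.

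At maturity, 39 of the 50 members passed between red and yellow fruit (57.1% of all genes tested passed), 10 higher and 29 lower in red (27.1% and 30% of all genes). The 9 calls were all lower in red (11.1% of all genes were called, 7.89% lower and 3.26% higher). The members' median log2 fold change was -0.30, against 0.00 over all genes. At color break, 31 members passed (41.5% of all genes), 15 higher and 16 lower in red (21.9% and 19.6%), and all 6 calls were higher in red (6.2% of all genes were called, 4.12% higher and 2.08% lower). The median there was -0.03, against 0.00. When each library in turn was left out, 35 of the 39 and 24 of the 31 passed every time. Split by direction, the count at maturity depends on the scaling: on library totals alone 14 members were higher and 27 lower, and with limma on log2(FPKM + 1) 17 were higher and 25 lower. These scalings moved the median of all genes by 0.09 and 0.12.

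Between stages, red and yellow fruit share no library. In red fruit 36 members passed (64.3% of all genes tested), 15 higher and 21 lower at maturity (31.5% and 32.8%), and the 9 calls were all lower (15.5% of all genes were called, 11.5% lower and 3.93% higher). In yellow fruit 34 passed (39.6%), 19 higher and 15 lower (19.2% and 20.4%), with 1 call higher and 5 lower (6.35% of all genes were called, 1.47% higher and 4.88% lower). The median log2 fold change was -0.06 in red and 0.07 in yellow, against 0.00 over all genes in each. Both the split and the sign in red depend on the scaling: on library totals 20 rose and 19 fell with a median of 0.06, and with limma on log2(FPKM + 1) 24 rose and 19 fell with a median of 0.10, while the median of all genes moved to 0.11 and 0.14. In yellow those splits were 20 and 15 on library totals, and 21 and 14 with limma.

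Of the 50, 3 met the FPKM filter through libraries of a single tomato or stage, so their direction in that comparison was favoured by the filter. Solyc09g015490 met it in red libraries of color break only, Solyc10g007290 in red libraries only and Solyc03g111130 in color break libraries only. Without Solyc09g015490 and Solyc10g007290, 9 members were higher and 28 lower in red at maturity, and 13 higher and 16 lower at color break. Without Solyc09g015490 and Solyc03g111130, 15 were higher and 19 lower with stage in red, and 19 higher and 14 lower in yellow. The fold changes of these 3 genes in the comparison concerned are given as a description. Solyc09g015490 is also among the calls at color break and with stage in red, and Solyc03g111130 among the calls with stage in both tomatoes. Those call counts were favoured by the filter to that extent.

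The same 26 members passed in both tomatoes, 11 higher at maturity in both, 10 lower in both and 5 in opposite directions. They are 52% of the members, and 30.4% of all genes tested passed in both. The members' median level was above that of all genes (33.6 against 9.43 FPKM). The part of level in this and the other shares passing was not tested. The direction was the same in 35 of 50 members (70%), against 64.0% of all genes. The difference of the stage changes passed in 33 members (46.7% of all genes), 7 higher (positive) and 26 lower (negative) (20.9% and 25.8%). It was called in 10, all lower (12.2% of all genes were called, 9.23% lower and 3% higher). Solyc09g015490 is among the members counted as passing and called lower, a direction favoured by its entry through red libraries of color break. On library totals the split was 13 higher and 19 lower, and with limma on log2(FPKM + 1) it was 15 and 18.

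**Figure D2:**
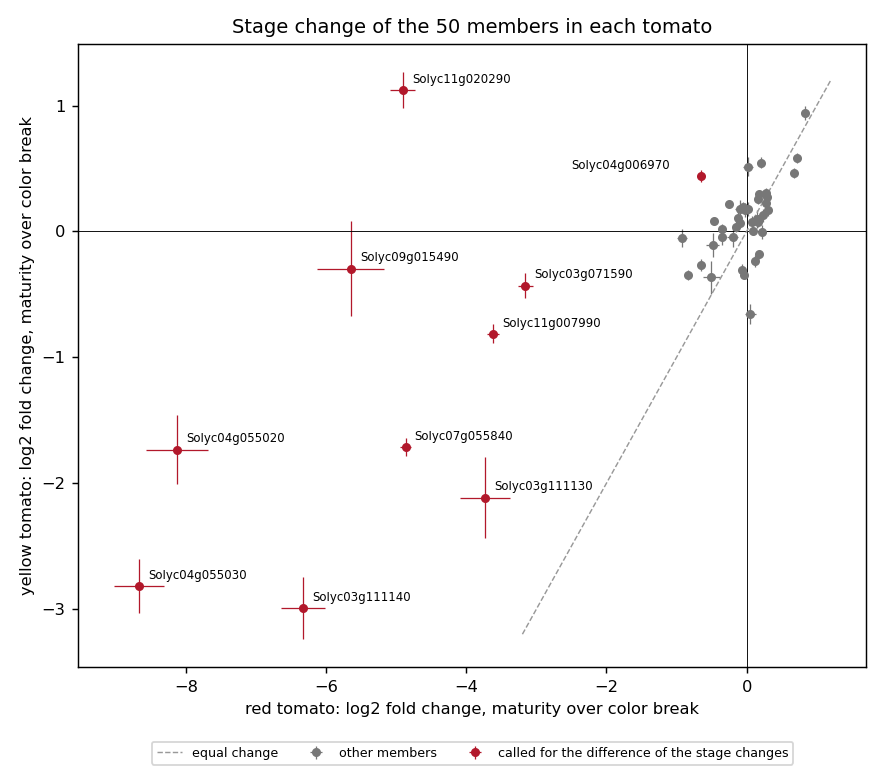
Log2 fold change from color break to maturity of the 50 members in red fruit (x axis) and in yellow fruit (y axis), with standard errors. The 10 members called for the difference of the stage changes are named in red. As their differences are all negative, they lie left of the dashed line of equal change. Solyc11g020290 and Solyc04g006970 rose in yellow while they fell in red.

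As sums, marker genes of seed and of green tissue shared the order of groups of several called members, though not of all. PPC4 (Solyc04g006970) was lowest in yellow at color break, and Solyc11g020290 was higher in yellow at maturity than at color break. Markers of both tissues were found mainly by words of the gene description, which 4835 of the 24215 genes have, so other such genes can be missing. All 5 seed markers found (4 oleosins and a late embryogenesis abundant protein) met the filter. Their summed level was 2.64 to 21.6 FPKM in red at maturity, with 21.6 FPKM in replicate 1, and 91.4 to 100 FPKM in yellow at maturity, against 874 to 929 FPKM in red and 514 to 558 FPKM in yellow at color break. The oleosins Solyc02g086490 and Solyc06g034040 had 0 counts in replicates 2 and 3 of red at maturity, and the other 3 markers were at 0 in no library. The order of these groups is also that of the malate synthase Solyc03g111140, the citrate synthase Solyc07g055840 and the iron-sulfur gene Solyc04g055020, and the red replicate with the highest sum at maturity is the one with counts of that iron-sulfur gene. Of 33 green tissue markers found, 21 met the filter. All 33 summed to 158 to 223 FPKM in red and 436 to 450 FPKM in yellow at maturity. At color break they summed to 956 to 989 FPKM in red and 642 to 701 FPKM in yellow. This is the order of groups of the plastid malate dehydrogenases, and also that of the seed markers. Within red at maturity the green tissue sum too was highest in replicate 1, at 223 FPKM. As both marker lists share their order, that order does not match a member to either tissue. Much of the green tissue sums came from Solyc07g066310, which averaged 99.2 FPKM in red and 303 FPKM in yellow at maturity, and 615 and 450 FPKM at color break. Of the 21 markers, 18 had a log2 fold change of red over yellow above 0 at color break, and 2 had one at maturity. The part of seed or green tissue in these results was not tested, and in such bulk samples fewer cells of a type and less RNA per cell cannot be told apart.

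Citrate synthase, which joins acetyl-CoA and oxaloacetate to citrate, has 2 members that behaved differently. Solyc07g055840 (chromosome 7, 63888061 to 63896473, in a genome build not given in the sources used here) had 1.78, 1.54 and 1.48 FPKM in red and 6.32, 5.79 and 6.75 FPKM in yellow at maturity. At color break it had 42.9, 41.3 and 41.2 FPKM in red and 20.3, 19.2 and 21.5 FPKM in yellow. No 2 groups overlap, and red is above yellow at color break but below it at maturity. The log2 fold change of red over yellow was -2.11 ± 0.09 at maturity (adjusted p = 1.42e-10) and 1.04 ± 0.07 at color break (adjusted p = 3.25e-08). With stage it fell in red (-4.87 ± 0.08, adjusted p = 2.1e-14) and in yellow (-1.71 ± 0.07, adjusted p = 5.7e-10), a difference of -3.15 ± 0.11 (adjusted p = 7.08e-11). Solyc12g011000, the more abundant citrate synthase, stayed between 31.8 and 40.2 FPKM in all group means. It rose with stage in red (0.18 ± 0.04, adjusted p = 0.000784) and fell in yellow (-0.18 ± 0.04, adjusted p = 0.00147), so these changes had opposite directions and were small. The summed citrate synthase level was 41.8 ± 1.31 FPKM in red and 39.8 ± 0.466 FPKM in yellow at maturity, against 73.6 ± 1.47 FPKM in red and 57.7 ± 0.117 FPKM in yellow at color break.

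Malate synthase, the glyoxylate cycle enzyme that makes malate from glyoxylate and acetyl-CoA, is represented by 2 neighbouring genes that were lowest in red at maturity. These members, Solyc03g111140 (63283865 to 63286116) and Solyc03g111130 (63280387 to 63282576), lie 1288 bases apart on the same strand of chromosome 3. Solyc03g111140 had 2.04, 0.445 and 0.428 FPKM in red and 6.04, 6.02 and 6.25 FPKM in yellow at maturity, against 71.1, 67.1 and 70.8 FPKM in red and 47.0, 48.5 and 47.8 FPKM in yellow at color break. The 4 groups do not overlap, and within red at maturity replicate 1 is above replicates 2 and 3. Its counts there were 216, 49 and 48. It fell with stage in red (-6.34 ± 0.31, adjusted p = 5.85e-10) and in yellow (-2.99 ± 0.25, adjusted p = 4.57e-07), and the difference was -3.35 ± 0.40 (adjusted p = 1.24e-05). Between tomatoes it was lower in red at maturity (-2.80 ± 0.33, adjusted p = 7.31e-06). Without replicate 1 of red at maturity the fall in red was -7.48, the difference -4.49 and the maturity value -3.95, each still called. At color break the fold change was 0.54 ± 0.22, with adjusted p = 0.0589, although every red library lay above every yellow one. The 4 groups share 1 estimate of the spread, and the color break value passed without replicate 1 (adjusted p = 3.69e-09), replicate 2 or replicate 3 of red at maturity (highest adjusted p = 0.0239), with the same fold change.

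Solyc03g111130 had a much lower level, with 0.504, 0.115 and 0.321 FPKM in red and 0.726, 0.716 and 0.374 FPKM in yellow at maturity, and 4.22, 3.41 and 3.80 FPKM in red and 2.79, 2.18 and 2.88 FPKM in yellow at color break. Red and yellow overlap at maturity and not at color break, and every maturity library is below every color break one. It met the filter in 6 libraries, all of color break, so the stage changes of -3.73 in red and -2.11 in yellow are a description. Its call at maturity (-1.08 ± 0.37, adjusted p = 0.0232) did not hold without replicate 2 of red (-0.69, adjusted p = 0.0690), replicate 3 of red (-1.09, adjusted p = 0.0520), replicate 1 of yellow (-0.93, adjusted p = 0.0823) or replicate 2 of yellow (-0.95, adjusted p = 0.0770). Its difference of stage changes was -1.62 ± 0.47 (adjusted p = 0.0125). How the counting treated reads that fit more than 1 of these neighbouring copies is not given in the sources used here, so the split between them is uncertain. Solyc03g111120, annotated with malate synthase activity, lies next to them, is not taken in by the rule and was chosen after its values were seen. It averaged 0.618 ± 0.0641 FPKM in red and 0.947 ± 0.245 FPKM in yellow at maturity, against 2.16 ± 0.264 FPKM in red and 2.84 ± 0.375 FPKM in yellow at color break.

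Succinate dehydrogenase is complex II of the respiratory chain and oxidises succinate to fumarate. A flavoprotein subunit binds the substrate and an iron-sulfur subunit passes the electrons on to ubiquinone. The iron-sulfur subunit has 3 members, and 2 of them nearly disappeared in red fruit at maturity. Solyc04g055020 (53483726 to 53486320) and Solyc04g055030 (53486583 to 53488417) lie 262 bases apart on the same strand of chromosome 4, and whether they are separate genes or pieces of a single one was not tested. Solyc04g055020 had 0.165, 0 and 0 FPKM in red and 2.40, 1.41 and 1.60 FPKM in yellow at maturity, against 14.2, 14.3 and 14.6 FPKM in red and 5.51, 6.10 and 6.26 FPKM in yellow at color break. Solyc04g055030 had 0.0857, 0 and 0 FPKM in red and 1.07, 0.995 and 1.28 FPKM in yellow at maturity, against 10.9, 10.6 and 11.4 FPKM in red and 7.03, 8.55 and 7.76 FPKM in yellow at color break. For both genes no groups overlap, red is the higher tomato at color break and the lower one at maturity. All counts in red at maturity came from replicate 1 (10 for Solyc04g055020 and 7 for Solyc04g055030), while replicates 2 and 3 had 0.

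With all libraries, Solyc04g055020 was lower in red at maturity (-5.13 ± 0.51, adjusted p = 1.4e-06) and higher in red at color break (1.27 ± 0.25, adjusted p = 0.00109). It fell in red (-8.13 ± 0.44, adjusted p = 1.65e-09) and in yellow (-1.73 ± 0.27, adjusted p = 0.000191), a difference of -6.40 ± 0.57 (adjusted p = 8.25e-07). Solyc04g055030 was lower in red at maturity (-5.36 ± 0.44, adjusted p = 2.21e-07). It fell in red (-8.67 ± 0.35, adjusted p = 8.58e-11) and in yellow (-2.82 ± 0.21, adjusted p = 1.93e-07), a difference of -5.86 ± 0.49 (adjusted p = 4.39e-07). These fitted sizes rest on few counts. Without replicate 1, red at maturity is at 0, and against a floor of 3 counts over the group Solyc04g055020 was at least 83.4-fold lower than in yellow at maturity and at least 665-fold lower than in red at color break. For Solyc04g055030 the bounds are at least 68.8-fold and at least 687-fold lower. These bounds hold for replicates 2 and 3 of red at maturity alone, and the fits with all libraries gave smaller falls. Without replicate 3 of red at maturity the 3 values of Solyc04g055020 that involve that group were -4.54 against yellow, -7.54 with stage and -5.81 for the difference. Its neighbour's color break value (0.50 ± 0.18, adjusted p = 0.0427) did not pass without any 1 of the 6 color break libraries or replicate 1 of yellow at maturity (adjusted p of 0.0503 to 0.142), nor with the replicate number as a block (adjusted p = 0.0739).

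The third iron-sulfur gene, Solyc02g093680, carried most of that subunit's level at both stages. It had 183, 183 and 174 FPKM in red and 251, 232 and 248 FPKM in yellow at maturity, against 176, 170 and 181 FPKM in red and 221, 237 and 210 FPKM in yellow at color break. Red libraries were below yellow ones at both stages, with log2 fold changes of -0.57 ± 0.05 (adjusted p = 4.74e-07) and -0.34 ± 0.05 (adjusted p = 0.000104). The flavoprotein gene Solyc02g085350 had 408, 450 and 475 FPKM in red and 409, 435 and 425 FPKM in yellow at maturity, against 249, 248 and 246 FPKM in red and 290, 307 and 308 FPKM in yellow at color break. Maturity lay above color break in both tomatoes, and red and yellow overlapped at maturity only. It rose by 0.68 ± 0.04 in red (adjusted p = 5.56e-09) and by 0.47 ± 0.04 in yellow (adjusted p = 1e-06). Solyc03g118110, annotated to the attachment of FAD to the flavoprotein and to complex II assembly, averaged 284 ± 33.9 FPKM in red and 353 ± 4.77 FPKM in yellow at maturity, a log2 fold change of -0.45 ± 0.07 (adjusted p = 0.000145). Its stage change in red did not pass (-0.09 ± 0.07, adjusted p = 0.29), but it did without replicate 1 of red at maturity (-0.21, adjusted p = 0.000651). The complex II gene Solyc04g079180 rose with stage in yellow (0.22 ± 0.03, adjusted p = 6.89e-05) and fell in red (-0.26 ± 0.03, adjusted p = 6.81e-06). The other complex II gene, Solyc12g088900, averaged 17.5 FPKM in red and 14.1 FPKM in yellow at maturity, against 14.1 and 13.0 FPKM at color break.

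**Figure D3:**
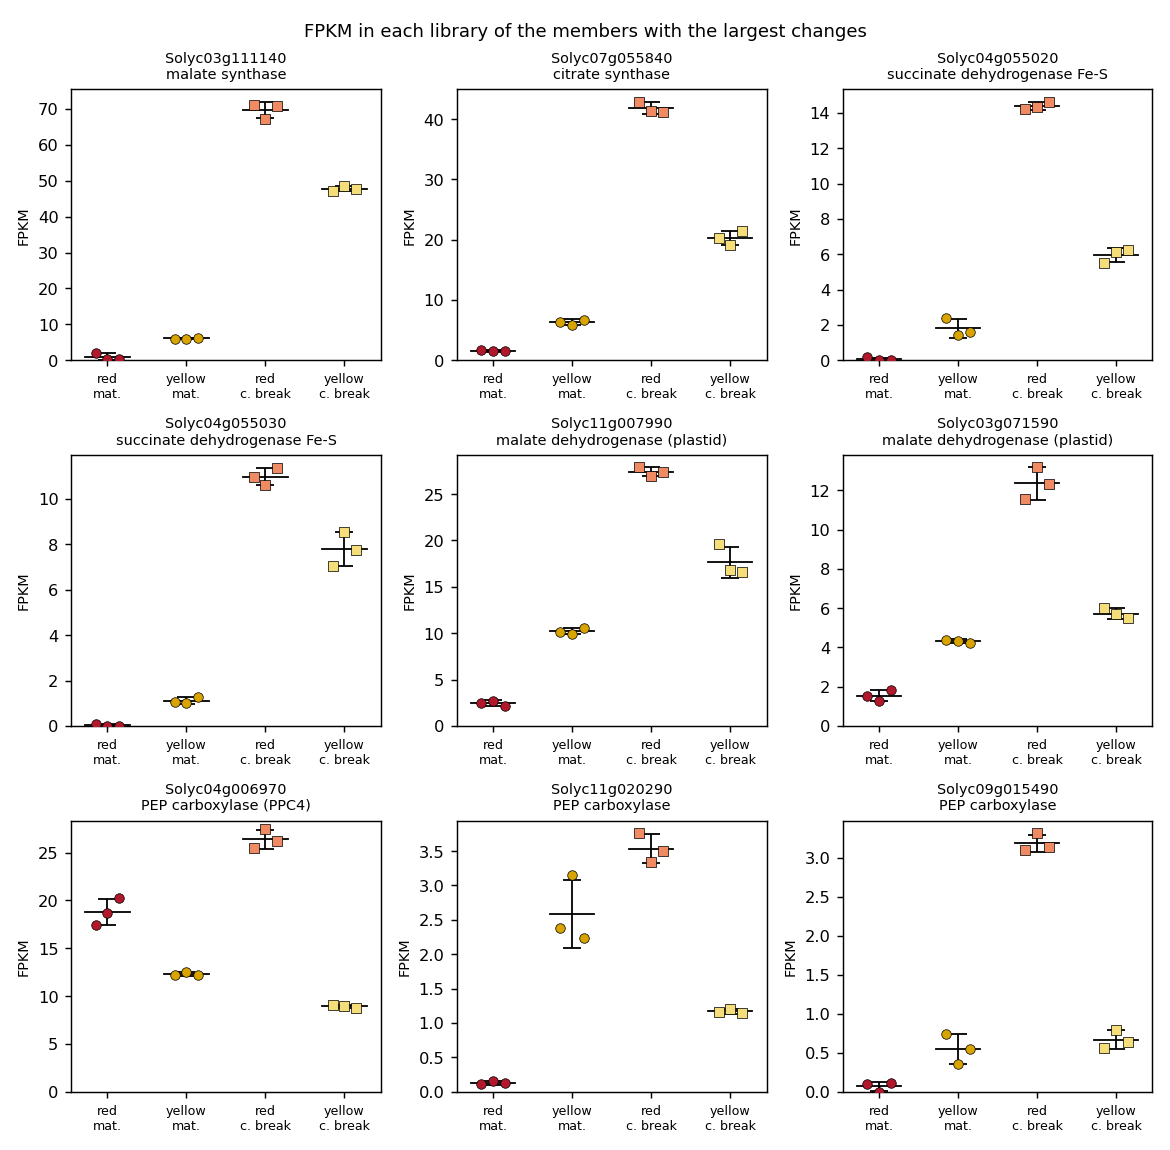
FPKM in each library (points) with mean and SD (lines) for 9 of the 10 called members, in red and yellow fruit at maturity and at color break. In 8 of the 9 panels red at maturity is the lowest group and red at color break the highest. In the panel of PPC4 yellow at color break is lowest.

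PEP carboxylase fixes bicarbonate onto phosphoenolpyruvate and so supplies oxaloacetate for malate and citrate. Leaving aside Solyc09g015490 and Solyc10g007290, 5 of its 7 members can be counted between the tomatoes. At color break 4 of these 5 passed (41.5% of all genes tested), all higher in red (21.9%). At maturity 4 of the 5 passed (57.1%), 3 higher and 1 lower in red (27.1% and 30%). Solyc07g055060, named PPC2 in the table, was the most abundant, with 101, 119 and 121 FPKM in red and 86.1, 90.1 and 87.5 FPKM in yellow at maturity, against 106, 104 and 108 FPKM in red and 106, 107 and 108 FPKM in yellow at color break. Its groups overlapped at color break and not at maturity, where red was higher (0.23 ± 0.05, adjusted p = 0.000996). Solyc07g062530, the second in level, rose by 0.83 ± 0.05 in red (adjusted p = 1.17e-08) and by 0.94 ± 0.05 in yellow (adjusted p = 1.5e-08), and averaged 70.5 ± 7.72 FPKM in red and 56.2 ± 1.62 FPKM in yellow at maturity. Solyc12g014250 averaged 12.8 ± 0.631 FPKM in red and 8.54 ± 0.375 FPKM in yellow at color break, where it was higher in red (0.58 ± 0.07, adjusted p = 2.49e-05), and it rose with stage in yellow (0.52 ± 0.07, adjusted p = 7.08e-05).

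Solyc04g006970, named PPC4, had 17.5, 18.7 and 20.2 FPKM in red and 12.2, 12.5 and 12.2 FPKM in yellow at maturity, against 25.5, 27.4 and 26.2 FPKM in red and 9.03, 8.95 and 8.79 FPKM in yellow at color break. Red lay above yellow at both stages without overlap. The excess was 0.47 ± 0.05 at maturity (adjusted p = 1.72e-06) and 1.56 ± 0.05 at color break (adjusted p = 2.15e-11). It fell with stage in red (-0.65 ± 0.05, adjusted p = 3.47e-08) and rose in yellow (0.44 ± 0.05, adjusted p = 6.94e-06), and the difference was -1.09 ± 0.07 (adjusted p = 2.14e-08). On library totals alone the difference was just under the size needed for a call, and with limma on log2(FPKM + 1) it was -0.89. Solyc10g007290, which met the filter in 5 libraries, all of them red, had 0.974, 1.07 and 1.16 FPKM in red and 0.547, 0.603 and 0.467 FPKM in yellow at maturity, against 1.38, 1.38 and 1.29 FPKM in red and 0.731, 0.635 and 0.683 FPKM in yellow at color break. Red lies above yellow at both stages, as its entry through red libraries favours, and no test is given of it.

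A further pair of PEP carboxylases of low level turned round between the stages. Solyc11g020290 had 0.106, 0.152 and 0.126 FPKM in red and 2.37, 3.15 and 2.24 FPKM in yellow at maturity, against 3.76, 3.34 and 3.49 FPKM in red and 1.16, 1.21 and 1.14 FPKM in yellow at color break. Red at maturity lies far below the other groups, with counts of 15, 23 and 19, and no groups overlap. The gene was lower in red at maturity (-4.44 ± 0.18, adjusted p = 1.61e-10) and higher in red at color break (1.59 ± 0.14, adjusted p = 8.83e-07). It fell with stage in red (-4.91 ± 0.18, adjusted p = 3.17e-11) and rose by 1.12 ± 0.14 in yellow (adjusted p = 2.59e-05), a difference of -6.03 ± 0.23 (adjusted p = 2.14e-10). The rise in yellow was 0.96 without replicate 2 of yellow at maturity, which passed but was not called. Solyc09g015490 had 0.0928, 0 and 0.112 FPKM in red and 0.739, 0.351 and 0.553 FPKM in yellow at maturity, against 3.10, 3.31 and 3.14 FPKM in red and 0.557, 0.797 and 0.640 FPKM in yellow at color break. Its yellow groups overlap each other, while red is below both at maturity and above both at color break. As a description, the log2 fold change of red over yellow was -3.10 at maturity and 2.25 at color break, and that with stage in red was -5.65. Its counts in red at maturity were 13, 0 and 16, and without replicate 2 the maturity value was -2.51, the stage value in red -5.06 and the difference -4.77, against -5.36 with it. It overlaps Solyc09g015495, which also matched the rule but had at most 0.00381 FPKM. Solyc09g015490 met the filter in 3 libraries, those of red at color break, so it entered the list only through the group where it is high, and no test is given of it.

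Malate dehydrogenase interconverts malate and oxaloacetate, with separate enzymes in mitochondria, cytosol, peroxisomes and plastids. Both members annotated to the plastid with NADP-dependent activity lost most of their level in red. In plastids the NADP enzyme is known for exporting reducing power as malate. Solyc11g007990 (chromosome 11, 2198344 to 2204347) had 2.53, 2.73 and 2.18 FPKM in red and 10.1, 9.95 and 10.6 FPKM in yellow at maturity, against 27.9, 26.9 and 27.4 FPKM in red and 19.6, 16.8 and 16.6 FPKM in yellow at color break. Solyc03g071590 (chromosome 3, 20381643 to 20386512) had 1.54, 1.28 and 1.82 FPKM in red and 4.40, 4.34 and 4.21 FPKM in yellow at maturity, against 11.5, 13.2 and 12.3 FPKM in red and 6.03, 5.68 and 5.48 FPKM in yellow at color break. In both genes the 4 groups are separate, with red at color break highest and red at maturity lowest. Solyc11g007990 fell in red (-3.62 ± 0.09, adjusted p = 4.42e-13) and in yellow (-0.81 ± 0.08, adjusted p = 1.58e-06), a difference of -2.81 ± 0.11 (adjusted p = 3.2e-10). Solyc03g071590 fell in red (-3.16 ± 0.11, adjusted p = 1.89e-11) and in yellow (-0.43 ± 0.10, adjusted p = 0.00395), a difference of -2.73 ± 0.15 (adjusted p = 5.93e-09). Red over yellow was -2.18 ± 0.09 and -1.62 ± 0.11 at maturity, and 0.63 ± 0.07 and 1.11 ± 0.10 at color break, in that order of genes (highest adjusted p = 1.23e-05).

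The most abundant malate dehydrogenase, Solyc09g090140, had 416, 394 and 406 FPKM in red and 458, 473 and 489 FPKM in yellow at maturity, against 315, 310 and 321 FPKM in red and 303, 333 and 322 FPKM in yellow at color break. It rose in both tomatoes, by 0.20 ± 0.04 in red (adjusted p = 0.00089) and by 0.55 ± 0.04 in yellow (adjusted p = 2.78e-07). Red and yellow overlapped at color break, and red was lower at maturity (-0.36 ± 0.04, adjusted p = 7.94e-06). Solyc07g062650, Solyc02g063490 and Solyc03g115990 were lower in red at maturity, with log2 fold changes of -0.50 to -0.43, and at color break, with -0.34 to -0.18 (highest adjusted p = 0.000856). Solyc09g091070 was the malate dehydrogenase outside the plastid pair with the largest difference of stage changes. It averaged 14.8 ± 0.358 FPKM in red and 19.6 ± 1.64 FPKM in yellow at maturity, against 25.2 ± 1.64 FPKM in red and 19.9 ± 1.23 FPKM in yellow at color break, with a difference of -0.87 ± 0.10 (adjusted p = 8.44e-06). Solyc12g014180, also annotated to tRNA processing, went the other way. It fell with stage in yellow (-0.65 ± 0.08, adjusted p = 1.9e-05), and at maturity red was above yellow (0.59 ± 0.08, adjusted p = 2.55e-05). The gene described as glyoxysomal, Solyc01g106480, averaged 17.8 ± 0.443 FPKM in red and 13.8 ± 0.536 FPKM in yellow at maturity, a log2 fold change of 0.23 ± 0.06 (adjusted p = 0.00363), while the malate synthase Solyc03g111140 was lower there. The summed malate dehydrogenase level was 838 ± 7.74 FPKM in red and 1002 ± 23.9 FPKM in yellow at maturity, against 751 ± 11.1 FPKM in red and 791 ± 29.3 FPKM in yellow at color break.

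Malic enzyme oxidises malate to pyruvate and carbon dioxide, and in ripening fruit it is known for consuming malate. Solyc12g044600, with NADP-dependent activity and a plastid annotation, was the most abundant of the 50 members. It had 607, 707 and 707 FPKM in red and 585, 623 and 611 FPKM in yellow at maturity, against 369, 371 and 357 FPKM in red and 391, 402 and 403 FPKM in yellow at color break. Maturity lay above color break in both tomatoes, and red and yellow overlapped at maturity. The gene rose by 0.72 ± 0.04 in red (adjusted p = 4e-09) and by 0.58 ± 0.04 in yellow (adjusted p = 1.41e-07). Red over yellow at maturity was 0.01 ± 0.04 (adjusted p = 0.811), and without replicate 1 of red at maturity it passed (0.07, adjusted p = 0.0358). The difference of these rises did not pass (0.14 ± 0.06, adjusted p = 0.0769), but it did without that library (0.19, adjusted p = 0.000305). Solyc05g050120, the second in level, fell with stage in yellow (-0.35 ± 0.03, adjusted p = 1.47e-06) and had a log2 change of -0.03 ± 0.03 in red (adjusted p = 0.389). The NAD malic enzyme Solyc08g013860, annotated to the mitochondrion, averaged 27.5 ± 1.21 FPKM in red and 29.4 ± 0.453 FPKM in yellow at maturity (-0.23 ± 0.04, adjusted p = 0.000195), a value that did not pass with limma on log2(FPKM + 1) (-0.09, adjusted p = 0.0793). The summed malic enzyme level was 816 ± 60.9 FPKM in red and 734 ± 19.6 FPKM in yellow at maturity, against 497 ± 7.28 FPKM in red and 549 ± 7.38 FPKM in yellow at color break. The red sum at maturity carries the slightly high FPKM of that group, and the difference of the sums was not tested.

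**Figure D4:**
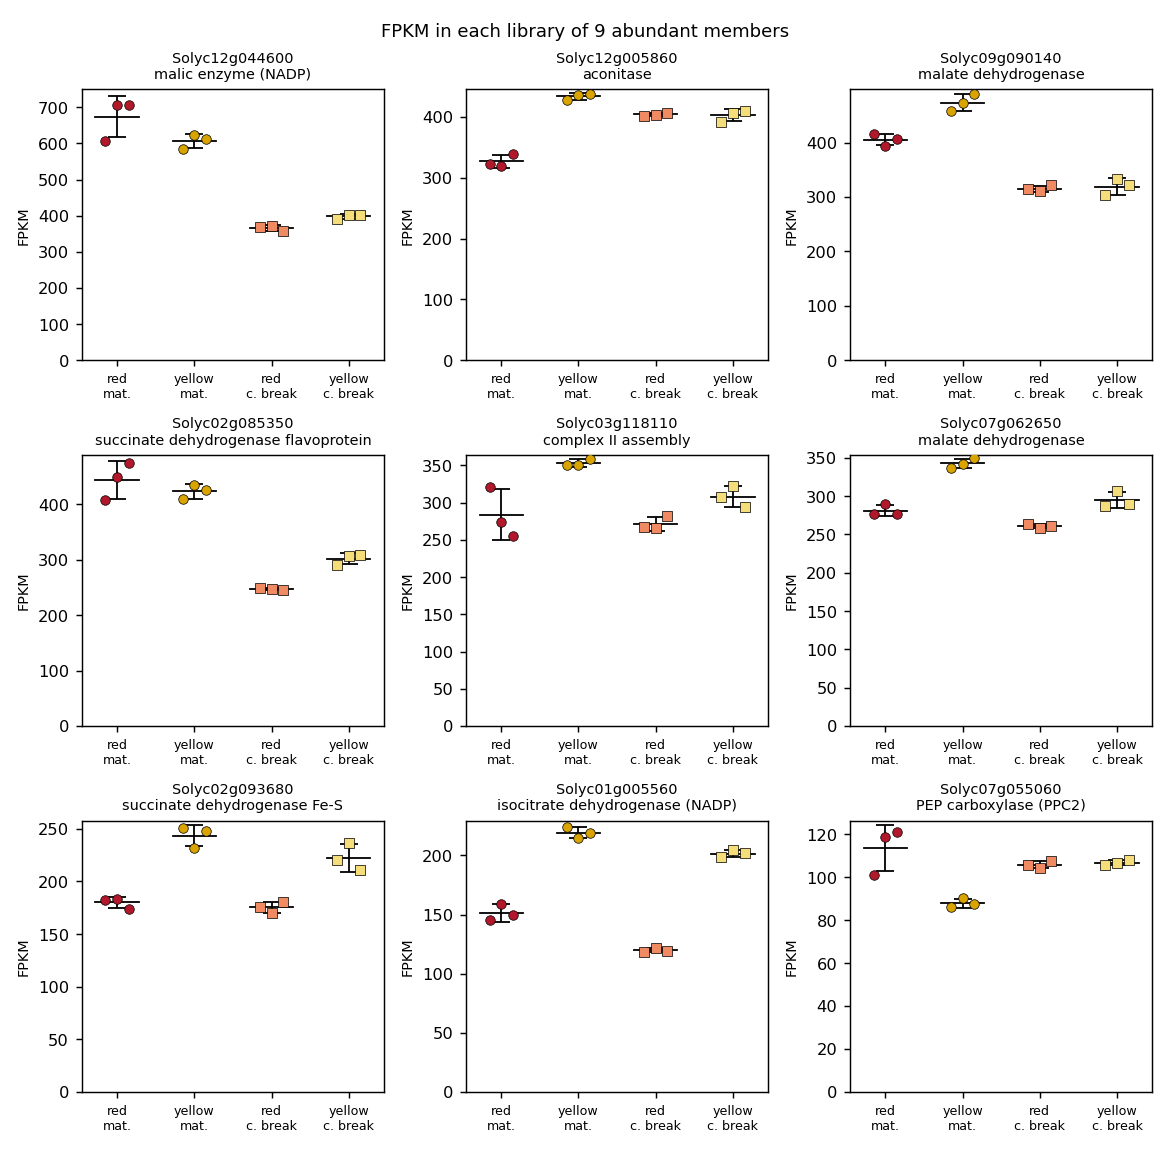
FPKM in each library (points) with mean and SD (lines) for 9 abundant members, in red and yellow fruit at maturity and at color break. The malic enzyme gene and the succinate dehydrogenase flavoprotein gene are higher at maturity in both tomatoes, while the NADP isocitrate dehydrogenase gene is lower in red at both stages.

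Aconitase turns citrate into isocitrate. Solyc12g005860, the second most abundant member, had 322, 319 and 339 FPKM in red and 427, 435 and 438 FPKM in yellow at maturity, against 402, 404 and 406 FPKM in red and 392, 407 and 410 FPKM in yellow at color break. Red at maturity lies below the other 3 groups, and red and yellow overlap at color break. It was lower in red at maturity (-0.55 ± 0.03, adjusted p = 4.34e-09) and fell with stage in red (-0.47 ± 0.03, adjusted p = 1.31e-08). Its change of 0.08 ± 0.03 in yellow (adjusted p = 0.0439) did not pass without any 1 of the 6 color break libraries or of the 3 yellow libraries at maturity (adjusted p of 0.0537 to 0.147). The other aconitase, Solyc07g052350, rose by 0.31 ± 0.04 in red (adjusted p = 3.28e-05) and by 0.17 ± 0.04 in yellow (adjusted p = 0.00876).

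Isocitrate dehydrogenase makes 2-oxoglutarate, with NAD in the mitochondrial cycle and with NADP elsewhere. The NADP gene Solyc01g005560 had 145, 159 and 149 FPKM in red and 224, 215 and 219 FPKM in yellow at maturity, against 119, 122 and 119 FPKM in red and 198, 204 and 202 FPKM in yellow at color break. All red libraries lay below all yellow ones. The log2 fold change was -0.67 ± 0.03 at maturity (adjusted p = 1.6e-09) and -0.75 ± 0.03 at color break (adjusted p = 1.22e-09). The difference of the stage changes was 0.08 ± 0.05 and did not pass (adjusted p = 0.207). A further NADP gene, Solyc11g011930, was lower in red at color break (-0.55 ± 0.05, adjusted p = 9.72e-07). Its value at maturity (-0.20 ± 0.05, adjusted p = 0.00337) did not pass on library totals (-0.11, adjusted p = 0.0630). Of the NAD genes, Solyc10g074500 averaged 64.7 ± 2.00 FPKM in red and 78.4 ± 3.04 FPKM in yellow at maturity, a log2 fold change of -0.42 ± 0.04 (adjusted p = 2.3e-06). At color break its values overlapped, with 73.7 ± 1.23 FPKM in red and 76.2 ± 3.60 FPKM in yellow. The NAD gene Solyc02g082860, with 9.10 ± 0.423 FPKM in red and 10.8 ± 0.133 FPKM in yellow at maturity, was lower in red there too (-0.38 ± 0.08, adjusted p = 0.00101), and so was the NADP gene Solyc02g086610 (-0.40 ± 0.06, adjusted p = 5.35e-05). The remaining NAD gene, Solyc08g077920, had group means of 40.5 to 48.0 FPKM, and its change with stage did not pass in red (0.09 ± 0.04, adjusted p = 0.0588) or in yellow (0.01 ± 0.04, adjusted p = 0.918).

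The 2-oxoglutarate dehydrogenase complex and succinyl-CoA ligase carry the cycle on to succinate. The E1 gene Solyc04g011350 was lower in red at both stages (-0.70 ± 0.05 at maturity, adjusted p = 2.63e-08, and -0.32 ± 0.05 at color break, adjusted p = 8.73e-05). It had 8.23, 7.88 and 8.17 FPKM in red and 12.7, 11.6 and 11.6 FPKM in yellow at maturity, against 11.6, 11.1 and 11.4 FPKM in red and 14.1, 14.3 and 14.1 FPKM in yellow at color break. The more abundant E1 gene, Solyc05g054640, rose by 0.18 ± 0.04 in red (adjusted p = 0.000705) and by 0.29 ± 0.04 in yellow (adjusted p = 2.14e-05). Of the E2 genes, Solyc07g064800 rose by 0.28 ± 0.05 in red (adjusted p = 0.000143) and by 0.22 ± 0.05 in yellow (adjusted p = 0.00195), and Solyc12g005080 rose in red (0.16 ± 0.04, adjusted p = 0.00219). Of succinyl-CoA ligase, the alpha subunit Solyc01g007910 and the beta subunit Solyc06g083790 rose by 0.27 to 0.30 in both tomatoes (highest adjusted p = 0.000277). The second alpha gene, Solyc02g005350, had log2 changes of 0.08 ± 0.05 in red (adjusted p = 0.138) and 0.07 ± 0.05 in yellow (adjusted p = 0.24), and in red it passed without replicate 1 at maturity (0.13, adjusted p = 0.0110).

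Fumarase hydrates fumarate to malate. Solyc09g075450 had 32.8, 34.4 and 32.0 FPKM in red and 44.2, 44.2 and 42.3 FPKM in yellow at maturity, against 53.2, 53.7 and 50.9 FPKM in red and 51.3, 56.0 and 56.5 FPKM in yellow at color break. Both tomatoes were lower at maturity, and red was lowest. It fell in red (-0.83 ± 0.04, adjusted p = 1.05e-09) and in yellow (-0.35 ± 0.04, adjusted p = 2.15e-05), and red was lower than yellow at maturity (-0.54 ± 0.04, adjusted p = 1.7e-07). The second fumarase, Solyc06g009820, had 4.27 ± 0.195 FPKM in red and 3.64 ± 0.105 FPKM in yellow at maturity, against 5.35 ± 0.675 FPKM in red and 3.87 ± 0.378 FPKM in yellow at color break. It was higher in red at color break (0.47 ± 0.10, adjusted p = 0.00145).

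A further 3 members were taken in by the words of the rule and stand beside the cycle. Solyc05g009030 is a 3-isopropylmalate dehydrogenase of leucine synthesis, and it was lower in red at maturity (-0.52 ± 0.04, adjusted p = 2.43e-07) and at color break (-0.33 ± 0.04, adjusted p = 3.36e-05). Solyc01g101040, the alpha chain of ATP-citrate synthase, which splits citrate in the cytosol, rose in red (0.23 ± 0.05, adjusted p = 0.0018). Solyc08g062190, described as a chloroplast omega-amidase, was lower in red at maturity (-0.33 ± 0.05, adjusted p = 0.00015). Just inside the filter, Solyc10g007290 reached 1 FPKM in 5 libraries and Solyc09g015490 in 3. Of the genes just outside it, Solyc02g092730 had at most 0.721 FPKM and Solyc08g066360 at most 0.599 FPKM.

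**Figure D5:**
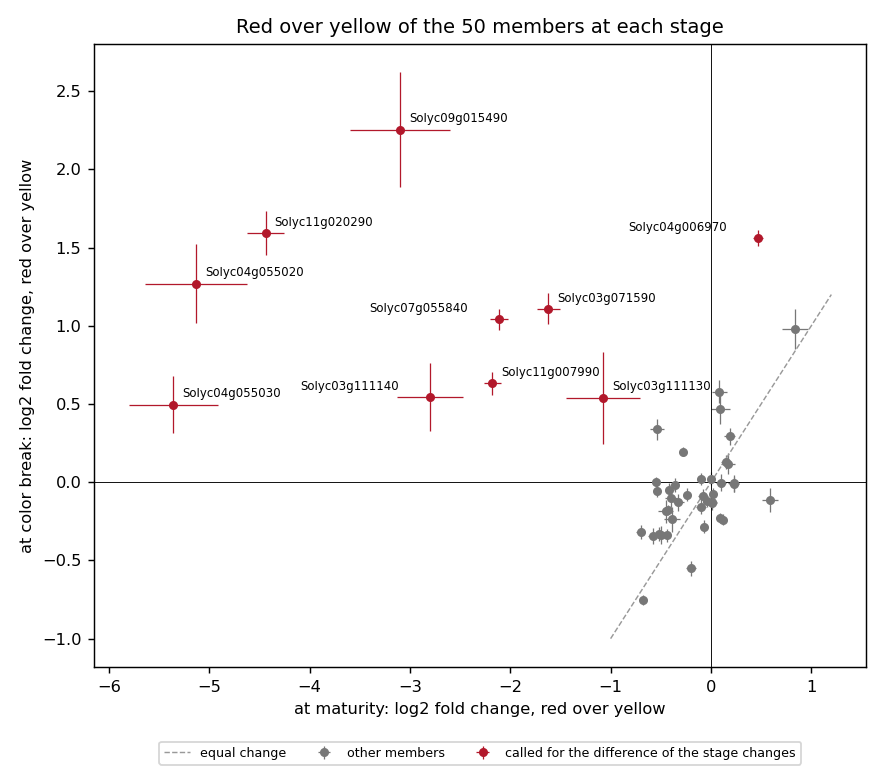
Log2 fold change of red over yellow for the 50 members at maturity (x axis) and at color break (y axis), with standard errors. Of the 10 named members in red, 9 lie below 0 at maturity and all lie above 0 at color break, though the values of both malate synthases at color break did not pass and that of Solyc04g055030 did so only narrowly. Solyc04g006970 is above 0 at both stages. The 10 are named for their difference of the stage changes, which is also the maturity value minus the color break value. All 10 differences are negative, so a lower value at maturity than at color break is built in.

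Genes next to the cycle were taken from a separate list, chosen by description and annotation, with 36 of 42 tested. It holds mainly pyruvate dehydrogenase, pyruvate kinase, malic enzyme activity, malate transport, ATP-citrate synthase, PEP carboxykinase and glutamate decarboxylase, and also Solyc03g111120, the isopropylmalate synthase Solyc06g053400 of leucine synthesis and Solyc04g008280, described as an aldolase. At maturity 28 of the 36 (77.8%) passed, against 57.1% of all genes tested, 8 higher and 20 lower in red, and 5 were called (13.9%, against 11.1%). At color break 23 passed (63.9%, against 41.5%), 10 higher and 13 lower in red, and 3 were called (8.33%, against 6.2%). With stage 27 passed in red (75%, against 64.3%), 13 higher and 14 lower, and 21 in yellow (58.3%, against 39.6%), 12 higher and 9 lower. These shares were not matched for level. Solyc12g008430, annotated with NAD malic enzyme activity, had 3.27, 2.99 and 3.08 FPKM in red and 6.57, 6.15 and 6.06 FPKM in yellow at maturity, against 45.4, 45.4 and 45.1 FPKM in red and 19.9, 17.8 and 19.4 FPKM in yellow at color break. No groups overlap, and their order is that of the citrate synthase Solyc07g055840. Its difference of stage changes was -2.40 ± 0.08 (adjusted p = 7.81e-11). Solyc05g024160, annotated with pyruvate dehydrogenase activity, had the same order of group means, 1.71, 2.24, 10.6 and 5.57 FPKM in red at maturity, yellow at maturity, red at color break and yellow at color break, with a difference of -1.45 ± 0.14 (adjusted p = 2.24e-06).

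ATP-citrate synthase Solyc05g005160 had 15.9, 15.8 and 14.6 FPKM in red and 42.0, 44.1 and 43.3 FPKM in yellow at maturity, against 21.3, 21.3 and 20.6 FPKM in red and 42.5, 41.6 and 43.1 FPKM in yellow at color break. Red lay below yellow at both stages, with log2 fold changes of -1.62 ± 0.05 at maturity (adjusted p = 3.24e-12) and -1.01 ± 0.04 at color break (adjusted p = 6.87e-10). The acetyltransferase gene of pyruvate dehydrogenase, Solyc05g009530, was lower in red too (-0.69 ± 0.04 at maturity, adjusted p = 1.44e-08, and -1.01 ± 0.04 at color break, adjusted p = 6.9e-10). These color break values sit at the size needed for a call and fell just under it, still passing, without single color break libraries (replicate 3 of either tomato for Solyc05g005160, and replicates 1 and 2 of red, both -0.99, or 3 of yellow for Solyc05g009530). In contrast, the E1 alpha gene Solyc05g006520 was higher in red at color break (0.93 ± 0.03, adjusted p = 5.25e-11) and rose with stage in yellow (0.78 ± 0.03, adjusted p = 4.79e-10). The pyruvate kinase Solyc09g008840 fell in red (-1.73 ± 0.06, adjusted p = 2.99e-11) and in yellow (-0.52 ± 0.06, adjusted p = 1.18e-05). PEP carboxykinase Solyc04g076880, which starts the route from acids back to sugar, had 34.4, 36.3 and 37.9 FPKM in red and 61.1, 60.0 and 58.9 FPKM in yellow at maturity, against 59.5, 61.2 and 60.1 FPKM in red and 62.9, 63.0 and 63.8 FPKM in yellow at color break. It was lower in red at maturity (-0.87 ± 0.03, adjusted p = 1.34e-10). Solyc11g068970, annotated to malate transport at the vacuole membrane, was lower in red at maturity too (-1.13 ± 0.09, adjusted p = 2.5e-07). Solyc03g120980, which carries annotations of malic enzyme activity and of an ABC transporter, fell with stage in red (-1.39 ± 0.04, adjusted p = 4.41e-12) and in yellow (-0.77 ± 0.04, adjusted p = 8.4e-09). The glutamate decarboxylase Solyc11g011920, chosen after its values were seen, rose by 1.09 ± 0.07 in red (adjusted p = 1.48e-08) and by 0.64 ± 0.07 in yellow (adjusted p = 1.25e-05).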

How the data were processed

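Messenger RNA of tomato fruit was sequenced in 12 libraries, read from both ends from strand-marked libraries per the labels' protocols. The submitters' processing notes name HISAT2 2.2.1, cutadapt 1.9, edgeR, StringTie 2.1.6 and DESeq2. The genome build, annotation, settings and use of strand in counting: not given in the sources used here. In the table the authors deposited, each gene has a raw read count and an FPKM value per library. Set to 1 in replicate 1 of yellow at color break, the depth implied by count over FPKM was 0.983, 0.939 and 0.946 of that implied by the count totals in red at maturity, and 0.983 to 0.993 in the remaining 8.

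Counts were fitted with edgeR 4.0.16 (R 4.3.3; glmQLFit and glmQLFTest, TMM scaling, a mean per group over all 12 libraries, no covariate), and every adjusted p is from it unless another tool is named. TMM factors were 1.05 to 1.06 in red at maturity and 0.972 to 0.993 in the others. At these depths a count of 0 allows up to 3 counts, which covers counting error only. Alternatives were RLE factors, library totals, DESeq2 1.42.0, limma 3.58.1 on log2(FPKM + 1) and log2(FPKM + 0.1), no filter, a replicate block and leaving out each library. The procedure was run on simulated data with a single spread for all genes and groups. That setting does not cover the wider spread within red at maturity. The members and lists were chosen with earlier results of these data known. Named were, per comparison, the 6 largest passing changes, every called member, the most abundant gene of each step and the 4 largest passing changes of the neighbouring list with at least 5 FPKM in the highest group; other members are given where a step is described.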

Additional observations from a re-analysis of the deposited data

Results flagged for a closer look

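In 10 members the change from color break to maturity differed between the tomatoes beyond a log2 size of 1, taken as red minus yellow. Solyc09g015490 is 1 of them and is given as a description only. In the others the difference itself was tested (edgeR, adjusted p under 0.05 in each). For the iron-sulfur genes Solyc04g055020 and Solyc04g055030 the differences were -6.40 and -5.86. The PEP carboxylases Solyc11g020290, Solyc09g015490 and Solyc04g006970 had differences of -6.03, -5.36 and -1.09. Solyc09g015490 met the FPKM filter in 3 libraries, all of red at color break, so its negative value was favoured by its entry and is a description. Malate synthases Solyc03g111140 and Solyc03g111130 had -3.35 and -1.62. The citrate synthase Solyc07g055840 had -3.15, and the plastid malate dehydrogenases Solyc11g007990 and Solyc03g071590 had -2.81 and -2.73. All 10 differences are negative, a direction favoured by its entry for Solyc09g015490. Of all genes tested, 9.23% were called lower and 3% higher.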

How the results depend on the processing

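Over 12 fits that left out 1 library each, the members called numbered 8 to 9 between red and yellow at maturity, 6 to 7 at color break, 9 with stage in red, 5 to 6 with stage in yellow and 10 for the difference. Those passing numbered 36 to 40, 25 to 34, 35 to 40, 29 to 36 and 28 to 36. Under the other 7 alternatives the totals passing or called moved by at most 1.5 times, but the number passing higher moved by more: with either limma fit it was 17 in place of 10 at maturity, 24 in place of 15 with stage in red and 15 in place of 7 for the difference, and on library totals 13 in place of 7 for the difference. Over all genes, limma on log2(FPKM + 1) called 942 in place of 1781 at maturity, 519 in place of 991 at color break, 1654 in place of 2471 with stage in red, 563 in place of 1015 in yellow and 1205 in place of 1954 for the difference, and no filter called 3822 with stage in red. On log2(FPKM + 1), which understates changes of low genes, these calls ended: Solyc03g111130 (-0.29) and Solyc09g015490 (-0.53) at maturity, Solyc03g071590 at color break (0.99), Solyc11g020290 in yellow (0.72), and Solyc03g111130 (-0.71) and Solyc04g006970 (-0.89) for the difference. On library totals the calls of Solyc03g111130 at maturity (-0.99) and of Solyc04g006970 for the difference ended. Of 130 results of named genes that passed, 2 changed direction, both under limma: Solyc05g054640 at maturity (0.0402 with a pseudocount of 1 and 0.0408 with 0.1, against -0.10) and Solyc05g009030 with stage in red (0.00577 and 0.00586, against -0.15). Over 19 alternatives a pass was lost 71 times, 51 of them with a library left out, and the cause was not tested. Low counts limit the genes near 0 in red at maturity. Replicate numbers do not pair the libraries: over 18 same-numbered pairs the correlation of deviations was -0.106 to 0.0820, and 2 of 12 libraries correlated best with their own number. With the replicate number as a block, 38, 30, 37, 33 and 33 members passed and 9, 6, 9, 6 and 10 were called, at maturity, at color break, in red, in yellow and for the difference.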
